A study of Homo sapiens with 6 samples.

Results

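The genes of cholesterol and fatty acid synthesis were examined in retinal pigment epithelial cells depleted of OFD1, a protein of the centrosome and of centriolar satellites. The 32 genes were taken by symbol from the deposited table, which lists 67130 genes, and each symbol matched 1 gene on the primary chromosomes. The rule names them by known role and uses no measured value, though the genes were chosen with earlier results of these data known. All 32 averaged 1 FPKM or more across samples and were among the 12025 genes tested. FPKM is a fragment number corrected for transcript length and for library depth, so levels of different genes are compared per length.

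All samples came from hTERT-RPE1-TOShOFD1, a line of hTERT-immortalized human retinal pigment epithelial cells (RPE1) that carries a doxycycline-inducible short hairpin RNA (shRNA) against OFD1. Control samples (n = 3, genotype label WT) were not given doxycycline, and OFD1-depleted samples (n = 3) were those with 200 ng/mL doxycycline, with 72 h in the titles of both. The control cells therefore also carry the uninduced hairpin, and no sample with doxycycline alone was analysed here, so doxycycline and the hairpin cannot be told apart. Nothing in the labels says whether the samples of a group were separate cultures or whether the line was a single clone. The study's legend to its RNA expression chart calls the columns biological replicates. The p-values measure the spread between these samples.

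OFD1 (ENSG00000046651, GRCh38 chrX:13734745-13769357) was at 3.34, 3.62 and 3.44 FPKM in control and at 0.795, 0.763 and 1.43 FPKM in doxycycline replicates 1, 2 and 3. The log2 difference was -1.75 (limma, adjusted p = 0.00085). The tissue label reads retina, but 4 of 5 photoreceptor markers were at 0 in every sample. Of 9 markers of differentiated pigment epithelium, MITF and OTX2 averaged 1 FPKM or more and TTR was at 0, so the markers of the differentiated epithelium were mostly low. Of 5 epithelial markers, KRT8 and KRT18 were at 111 to 218 FPKM, KRT19 and CDH1 were at most 0.211 and 0.0492 FPKM and EPCAM was at 0. All 3 mesenchymal markers were high, with VIM at 3588 to 4458, FN1 at 1199 to 2099 and CDH2 at 45.4 to 79.1 FPKM. The sum of 7 proliferation markers was 320 to 371 FPKM in control and 151 to 165 FPKM with doxycycline, and in bulk RNA fewer cycling cells and less RNA per cell cannot be told apart. The part of this difference in the results below was not tested. FPKM summed over all genes was 408302 to 414547 in control and 433262 to 493510 in OFD1-depleted samples, and the mitochondrially encoded share was 8.66% to 13.8% and 15.6% to 19.3%.

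Cells make cholesterol from acetyl-CoA by way of mevalonate, farnesyl diphosphate, squalene and lanosterol. The genes of this route are switched on together by the transcription factor SREBP-2, and those of fatty acid synthesis mainly by SREBP-1. Both factors are made as membrane proteins of the endoplasmic reticulum, where the INSIG proteins hold them with their escort SCAP as long as sterols are plentiful. When sterols run low, SCAP carries them to the Golgi apparatus, where proteases free the part that enters the nucleus. In proliferating cells the route supplies membrane lipid as well as the isoprenoid anchors of small GTPases.

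The 32 genes were on the whole lower in OFD1-depleted cells. Of them, 14 fell past the threshold (limma, adjusted p below 0.05 over all genes tested) and 0 rose, against 11.9% of all genes that fell and 5.07% that rose. The 14 make up 43.8% of the list. The log2 difference was below 0 for 31 of 32 genes, against 53.7% of all genes, and its median was -0.44, against -0.03 over all genes. In 22 of 32 genes every OFD1-depleted sample lay below every control sample, against 22.3% of all genes. The FPKM of the 32 genes summed to 1470, 1445 and 1473 in control and to 1000, 938 and 918 in OFD1-depleted replicates 1, 2 and 3, or 65.1% of control. In this sum the groups did not overlap. Set against the mean of the 3 controls, OFD1-depleted replicates 1, 2 and 3 had median log2 differences over the list of -0.46, -0.43 and -0.54, while those over all genes were 0.04, -0.09 and -0.08.

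**Figure D1:**
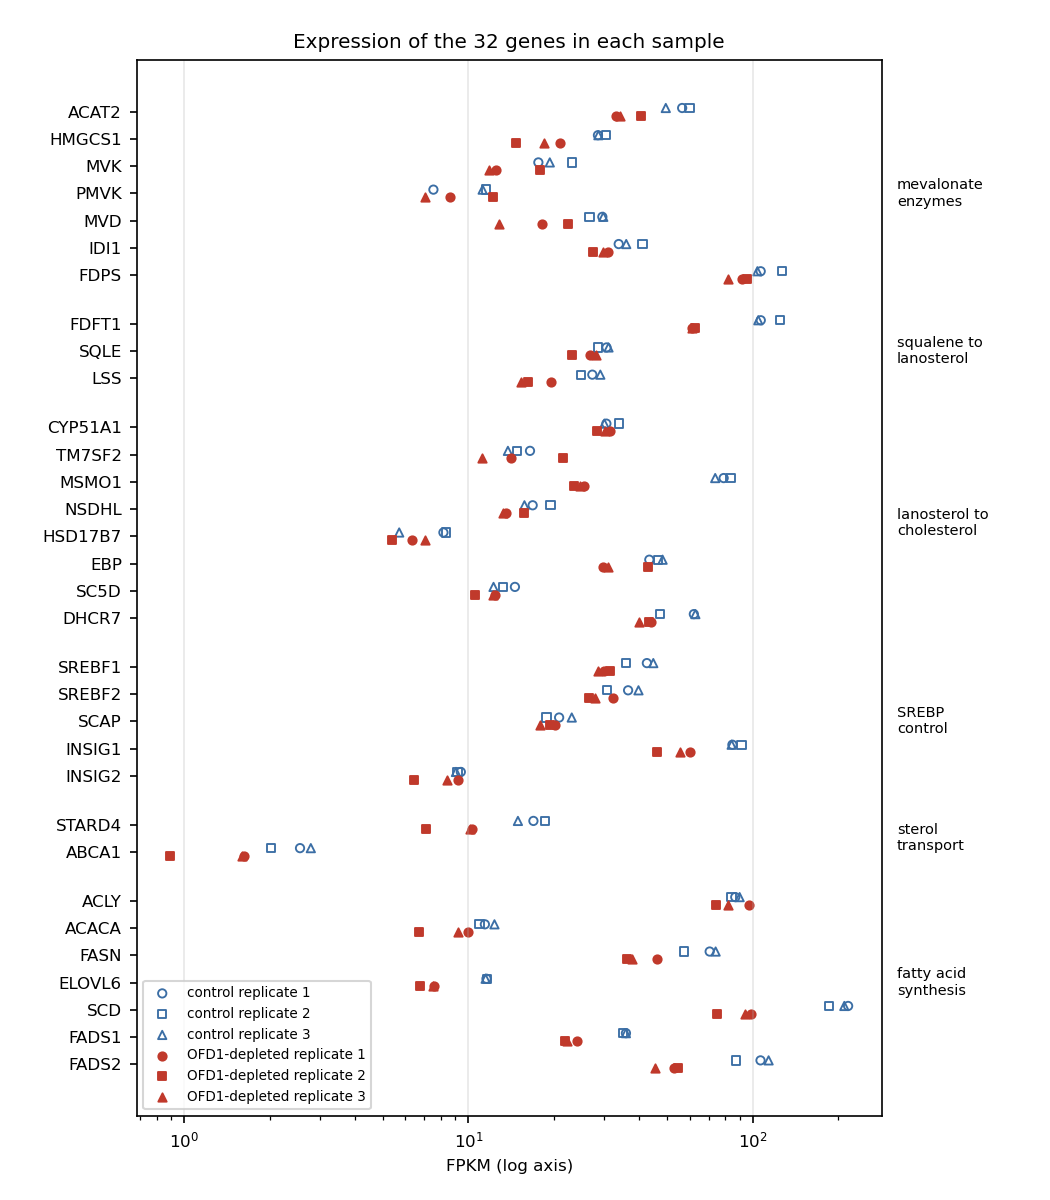
FPKM (log axis) of each of the 32 genes in every sample, grouped by role, with open blue symbols for control and filled red symbols for OFD1-depleted replicates (circle, square and triangle for replicates 1, 2 and 3). MSMO1 and SCD show the widest gaps between the groups, while the groups overlap for CYP51A1, TM7SF2 and ACLY.

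Some of the 32 transcripts hold a short match to the guide strand of an OFD1 shRNA that the study lists, and these sequences are shown because the genes with the largest falls are among them. The listed sense sequence matched the coding part of the canonical OFD1 transcript at 1 place without mismatch. The sources used here do not say that the inducible line carries this shRNA. Pairing of guide positions 2 to 8 with a 3′ UTR is the usual basis of unintended, microRNA-like repression, and the word that pairs with these positions here is ACTAGAA. It occurred in the 3′ UTR of 5 of the 32 genes, with 2 matches in STARD4. The 25 bases around each match, read 5′ to 3′ on the transcript's strand of GRCh38, are given with the 7 matching bases in capitals:
MSMO1 (chr4:165342213-165342237, + strand): gttttggatACTAGAAgtattaatc
SCD (chr10:100362330-100362354, + strand): tgagtaaaaACTAGAAggcttctct
HMGCS1 (chr5:43290027-43290051, − strand): cctagtctgACTAGAAgtattccac
STARD4, first match (chr5:111499314-111499338, − strand): cagtctgtaACTAGAAcaaatacag
STARD4, second match (chr5:111496122-111496146, − strand): atatgtaaaACTAGAAtatttatta
IDI1 (chr10:1039498-1039522, − strand): tggttttcaACTAGAAagctaaatg

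Of the 5 genes with such a 3′ UTR match, 4 fell (MSMO1, SCD, STARD4 and HMGCS1) and IDI1 did not pass the threshold. ACAT2, which also fell, holds the word in its coding part only. Of the 27 genes without a 3′ UTR match, 10 fell (37.0%) and 26 had a log2 difference below 0, with a median of -0.43. Over all genes tested whose 3′ UTR was 30 bases or longer, 29.5% of the 1249 with a match fell (median log2 difference -0.28), and 10.7% of the 9380 without a match fell (median -0.02). The genes with and without a match were not made alike in 3′ UTR length or base composition. The part of the matches in the difference of any gene was not tested.

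**Figure D2:**
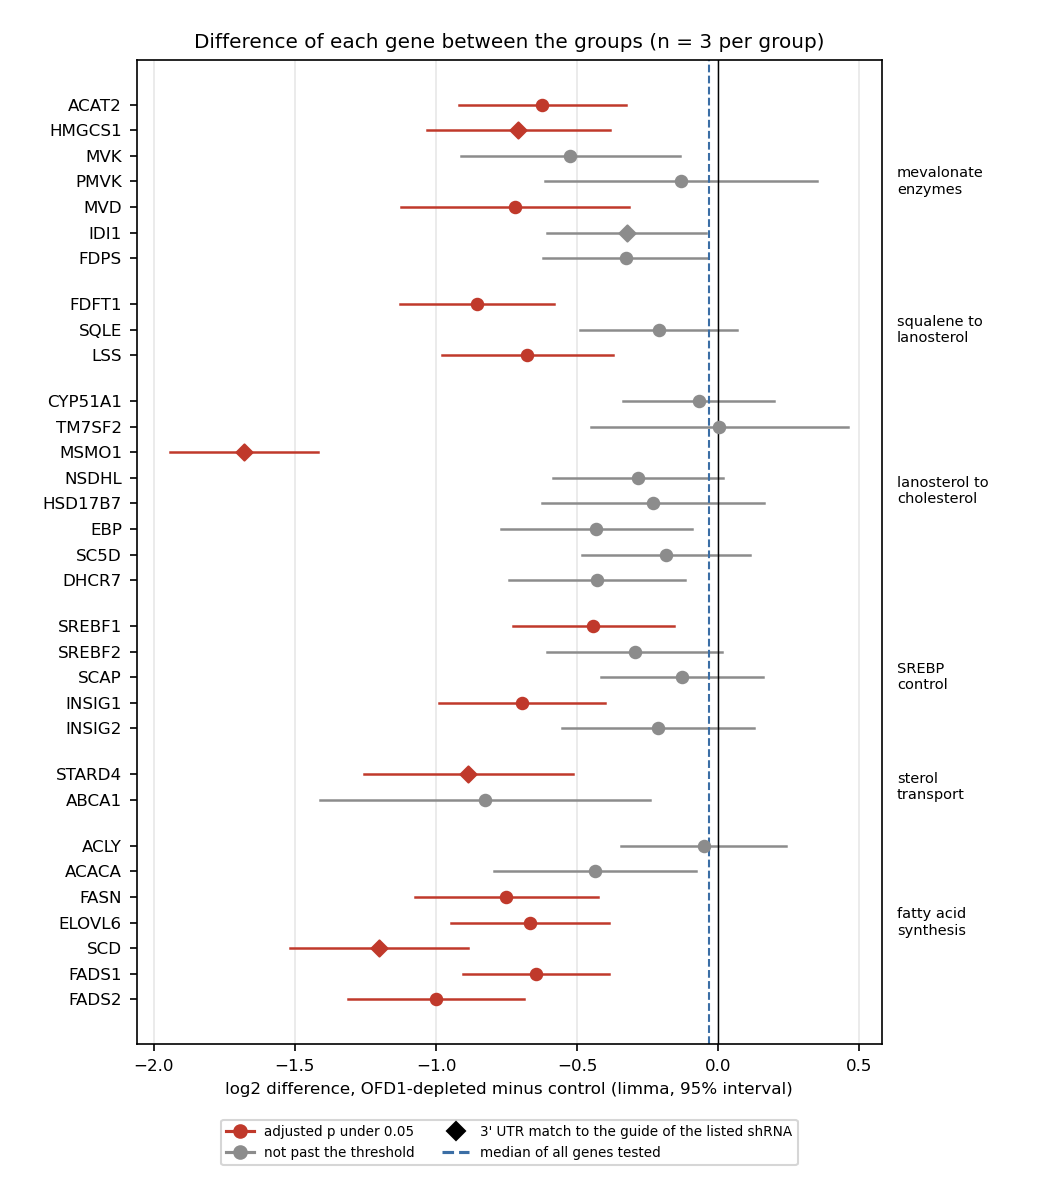
Log2 difference of each gene (OFD1-depleted minus control, limma on log2(FPKM + 0.1), 95% interval, n = 3 per group), with genes past the threshold in red, diamonds for genes with a 3′ UTR match and a dashed line at the median of all genes (-0.03). MSMO1 lies farthest to the left at -1.68, and the interval of TM7SF2 spans -0.45 to 0.46.

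Of the 7 enzymes from acetyl-CoA to farnesyl diphosphate, ACAT2, HMGCS1 and MVD fell (42.9%, against 11.9% of all genes) and 0 rose (against 5.07%). The log2 difference was below 0 for all 7, against 53.7% of all genes. ACAT2 (ENSG00000120437, chr6:159762045-159779112), the cytosolic thiolase that opens the route, was at 56.5, 60.0 and 49.5 FPKM in control and 33.2, 40.4 and 34.1 FPKM in doxycycline replicates 1, 2 and 3. All OFD1-depleted samples lay below all controls, with a log2 difference of -0.62 ± 0.13 (SE, adjusted p = 0.00884). HMGCS1 (ENSG00000112972, chr5:43287470-43313512), which makes HMG-CoA, was at 28.6, 30.5 and 28.7 FPKM in control and 21.0, 14.7 and 18.5 FPKM with doxycycline. The groups did not overlap, and OFD1-depleted replicate 2 was the lowest sample (log2 difference -0.71 ± 0.15, adjusted p = 0.0073). MVD (ENSG00000167508, chr16:88651935-88663161), which decarboxylates diphosphomevalonate to isopentenyl diphosphate, was at 29.6, 26.7 and 29.8 FPKM in control and 18.2, 22.4 and 12.8 FPKM with doxycycline. It lay lower in every OFD1-depleted sample, though these spread from 12.8 to 22.4 FPKM, and the log2 difference was -0.72 ± 0.18 (adjusted p = 0.0206). The MVD call was lost without control replicate 1, 2 or 3 or OFD1-depleted replicate 3, with adjusted p-values of 0.0634, 0.0515, 0.0801 and 0.0538. Without the filter on low genes, the MVD and HMGCS1 calls were also lost (adjusted p = 0.1304 and 0.0502).

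The other 4 enzymes of this stretch did not pass the threshold. IDI1, the isomerase of isopentenyl diphosphate, was at 33.8, 41.0 and 35.9 FPKM in control and 31.1, 27.4 and 29.7 FPKM with doxycycline (log2 difference -0.32, adjusted p = 0.110). FDPS, the farnesyl diphosphate synthase, was at 107, 127 and 104 FPKM in control and 91.5, 95.4 and 81.9 FPKM with doxycycline (log2 difference -0.33, adjusted p = 0.118). Neither gene's groups overlapped. MVK and PMVK, the kinases that add phosphate to mevalonate in succession, overlapped between groups, with log2 differences of -0.52 (adjusted p = 0.0654) and -0.13 (adjusted p = 0.731). In both, OFD1-depleted replicate 2 was the highest of its group, and without it MVK passed the threshold (log2 difference -0.71, adjusted p = 0.00638).

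From farnesyl diphosphate to lanosterol, FDFT1 and LSS fell and SQLE, which lies between them in the route, did not pass the threshold. The share of these 3 genes that fell was 66.7%, against 11.9% of all genes. FDFT1 (ENSG00000079459), the squalene synthase that commits farnesyl diphosphate to sterols, was at 107, 125 and 105 FPKM in control and 61.2, 62.9 and 61.2 FPKM in doxycycline replicates 1, 2 and 3. The OFD1-depleted samples were close to each other and well below all controls, with a log2 difference of -0.86 ± 0.12 (adjusted p = 0.000816). LSS (ENSG00000160285, chr21:46188141-46228824), which folds oxidosqualene into lanosterol, was at 27.3, 24.96 and 29.1 FPKM in control and 19.5, 16.2 and 15.3 FPKM with doxycycline. No OFD1-depleted sample reached the controls (log2 difference -0.68 ± 0.14, adjusted p = 0.00651). SQLE, the squalene epoxidase, was at 30.6, 28.5 and 31.1 FPKM in control and 26.8, 23.2 and 28.1 FPKM with doxycycline. It was lower in every OFD1-depleted sample but by little, with a log2 difference of -0.21 (95% interval -0.49 to 0.07, adjusted p = 0.292).

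Of the 8 enzymes from lanosterol to cholesterol, MSMO1 fell and the other 7 did not pass the threshold. The share that fell, 12.5%, was near the 11.9% of all genes. MSMO1 (ENSG00000052802, chr4:165327667-165343164), the methylsterol monooxygenase that begins removal of the paired methyl groups of the sterol ring, was at 79.1, 83.6 and 73.9 FPKM in control and 25.4, 23.4 and 24.7 FPKM in doxycycline replicates 1, 2 and 3. Its OFD1-depleted samples were at 31.1% of control on average and varied little, and its log2 difference of -1.68 ± 0.12 (adjusted p = 1.35e-05) was the lowest of the 32 genes under each of the 16 alternatives. Its 3′ UTR holds a match shown above. NSDHL and HSD17B7, which act with MSMO1 in the same demethylation, had log2 differences of -0.29 (adjusted p = 0.187) and -0.23 (adjusted p = 0.427).

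CYP51A1, the lanosterol demethylase that acts upstream of MSMO1, was at 30.6, 33.9 and 30.1 FPKM in control and 31.5, 28.3 and 30.3 FPKM with doxycycline. The groups overlapped, and the log2 difference was -0.07 (95% interval -0.34 to 0.20, adjusted p = 0.745). TM7SF2, a sterol reductase, was at 16.5, 14.8 and 13.8 FPKM in control and 14.1, 21.5 and 11.2 FPKM with doxycycline. OFD1-depleted replicate 2 held the highest and replicate 3 the lowest of the 6 values, with a log2 difference of 0.0044 (adjusted p = 0.993) that was below 0 under 5 of 16 alternatives.

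Among the last steps, EBP, the sterol isomerase, was at 43.3, 46.5 and 48.2 FPKM in control and 29.7, 42.9 and 31.0 FPKM with doxycycline (log2 difference -0.43, adjusted p = 0.0785). Its OFD1-depleted replicate 2 was near the controls, and without that sample EBP passed the threshold (log2 difference -0.60, adjusted p = 0.0037). DHCR7, the reductase that yields cholesterol, was at 62.1, 47.2 and 62.9 FPKM in control and 43.9, 43.4 and 39.7 FPKM with doxycycline (log2 difference -0.43, adjusted p = 0.0615). Here control replicate 2 stood apart, and without it DHCR7 passed the threshold (log2 difference -0.56, adjusted p = 0.0247). SC5D, the desaturase between EBP and DHCR7, overlapped between the groups and had a log2 difference of -0.19 (adjusted p = 0.392).

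Among the 5 genes of SREBP control, SREBF1 and INSIG1 fell (40.0%, against 11.9% of all genes). INSIG1 (ENSG00000186480, chr7:155297776-155310235), which retains SCAP in the endoplasmic reticulum and is itself a target of SREBP, was at 84.9, 91.5 and 84.4 FPKM in control and 60.1, 46.2 and 55.6 FPKM in doxycycline replicates 1, 2 and 3. All OFD1-depleted samples lay below all controls (log2 difference -0.69 ± 0.13, adjusted p = 0.00477). SREBF1 (ENSG00000072310, chr17:17810399-17837011), which encodes SREBP-1, was at 42.5, 35.9 and 44.7 FPKM in control and 30.1, 31.6 and 28.6 FPKM with doxycycline. The groups did not overlap but lay close, and the log2 difference was -0.44 ± 0.13 (adjusted p = 0.0387). The SREBF1 call was lost without control replicate 1 (adjusted p = 0.167), control replicate 3 (0.179), OFD1-depleted replicate 1 (0.091) or OFD1-depleted replicate 3 (0.101). It was also lost without the filter on low genes (0.0835), with median-of-ratios scaling (0.0679) and in limma without the trend (0.0697).

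The remaining control genes overlapped between the groups. SREBF2, which encodes SREBP-2, was at 36.5, 30.7 and 39.7 FPKM in control and 32.3, 26.6 and 27.9 FPKM with doxycycline (log2 difference -0.30, adjusted p = 0.182). SCAP, the escort of both factors, had a log2 difference of -0.13 (adjusted p = 0.552). INSIG2, the second retention protein, was at 9.40, 9.14 and 9.04 FPKM in control and 9.15, 6.43 and 8.43 FPKM with doxycycline (log2 difference -0.21, adjusted p = 0.392).

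STARD4 fell among the genes of sterol transport, and ABCA1 did not pass the threshold. STARD4 (ENSG00000164211, chr5:111496033-111512590), which carries cholesterol through the cytosol, was at 16.9, 18.6 and 14.9 FPKM in control and 10.3, 7.08 and 10.1 FPKM with doxycycline. All OFD1-depleted samples lay below the controls (log2 difference -0.89 ± 0.17, adjusted p = 0.00443), and its 3′ UTR holds both STARD4 matches shown above. ABCA1, which exports cholesterol and is a target of the sterol-sensing LXR receptors, was the lowest expressed of the 32 genes at 2.55, 2.02 and 2.79 FPKM in control and 1.62, 0.893 and 1.60 FPKM with doxycycline. Its groups did not overlap either, but with a log2 difference of -0.83 ± 0.27 the adjusted p was 0.0559. It passed the threshold under 5 of the 15 alternatives in which it was tested.

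Of the 7 enzymes of fatty acid synthesis and desaturation, FASN, ELOVL6, SCD, FADS1 and FADS2 fell, a share of 71.4%, against 11.9% of all genes. SCD (ENSG00000099194, chr10:100347233-100364826), which puts the first double bond into saturated fatty acids, was the highest expressed of the 32 genes in control, at 217, 186 and 210 FPKM, and was at 98.7, 74.7 and 94.3 FPKM in doxycycline replicates 1, 2 and 3. Every OFD1-depleted sample lay far below every control (43.6% of control, log2 difference -1.20 ± 0.14, adjusted p = 0.000238). FASN (ENSG00000169710, chr17:82078338-82098294), the synthase that builds palmitate, was at 70.6, 57.3 and 74.1 FPKM in control and 46.1, 36.3 and 37.6 FPKM with doxycycline. Control replicate 2 was the lowest control but still above all OFD1-depleted samples (log2 difference -0.75 ± 0.15, adjusted p = 0.00529). ELOVL6 (ENSG00000170522, chr4:110045846-110199199), which lengthens palmitate, was at 11.6, 11.6 and 11.5 FPKM in control and 7.54, 6.76 and 7.497 FPKM with doxycycline. The controls were nearly equal and the groups did not overlap (log2 difference -0.67 ± 0.13, adjusted p = 0.00456).

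FADS2 and FADS1, neighbouring desaturases of polyunsaturated fatty acids, fell together. FADS2 (ENSG00000134824, chr11:61792980-61867354) was at 107, 87.3 and 114 FPKM in control and 52.8, 54.9 and 45.4 FPKM with doxycycline. FADS1 (ENSG00000149485, chr11:61799627-61829318) was at 35.8, 34.9 and 35.8 FPKM in control and 24.1, 21.8 and 22.2 FPKM with doxycycline. The groups did not overlap in either gene, with log2 differences of -1.002 ± 0.142 (adjusted p = 0.000703) for FADS2 and -0.65 ± 0.12 (adjusted p = 0.00344) for FADS1. Their spans overlap on opposite strands over 29692 bases, and the span of FADS2 also holds FEN1 on the same strand, which was at 32.8 FPKM in control and 15.0 FPKM with doxycycline on average. The library kit named in the study's methods keeps strand, but the labels also name a TruSeq kit. Whether the counting used strand is not given in the sources used here, so the division of reads between these genes is uncertain. The same holds where ACAT2, MVK and SREBF1 overlap TCP1 and SOD2, MMAB, and RAI1 on the opposite strand, and where STARD4 overlaps STARD4-AS1. IDI1, FDPS, CYP51A1, HSD17B7 and SCD have copies elsewhere in the genome, the highest of which was at 0.806 FPKM.

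The enzymes that supply the fatty acid route did not pass the threshold. ACLY, which makes cytosolic acetyl-CoA from citrate, was at 86.9, 84.4 and 90.1 FPKM in control and 97.1, 74.5 and 82.1 FPKM with doxycycline. The OFD1-depleted samples lay on both sides of the controls, and the log2 difference was -0.05 (95% interval -0.34 to 0.25, adjusted p = 0.830), turning to between 0.00063 and 0.04 under 3 of 16 alternatives. ACACA, which makes malonyl-CoA, was at 11.4, 10.9 and 12.3 FPKM in control and 9.96, 6.71 and 9.22 FPKM with doxycycline. Its groups did not overlap (log2 difference -0.44, adjusted p = 0.0925).

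Because scaling between samples cancels in a ratio within a sample, related genes were also set against each other, in 8 pairs chosen after the values were seen. MSMO1 was at 2.59, 2.46 and 2.46 times the level of CYP51A1 in control replicates 1, 2 and 3 and at 0.807, 0.828 and 0.817 times in OFD1-depleted replicates 1, 2 and 3. The order of the levels of these enzymes of the same route was turned around in every OFD1-depleted sample. SCD over ACLY went from 2.50, 2.21 and 2.34 in control to 1.016, 1.003 and 1.15, and FDFT1 over SQLE from 3.49, 4.38 and 3.37 to 2.28, 2.71 and 2.18. INSIG1 over INSIG2 was 9.04, 10.0 and 9.34 in control and 6.57, 7.19 and 6.60 in OFD1-depleted samples. SCD5, a desaturase related to SCD, rose (log2 difference 0.47, adjusted p = 0.0361), and SCD over SCD5 was at 24.6, 24.9 and 25.3 in control and at 8.03, 7.18 and 8.17 with doxycycline. The groups did not overlap in these 5 ratios. FADS2 over FADS1, SREBF1 over SREBF2 and FASN over ACACA overlapped. With 3 samples against 3 an exact permutation test cannot give a p-value under 0.1, which the 5 ratios without overlap reached and which is no call.

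OFD1-depleted replicate 2 stood apart from replicates 1 and 3 in a way that moved with transcript length and with the share of G and C bases. Over the 32 genes, its log2 difference from the mean of replicates 1 and 3 had a Spearman correlation with the length of the canonical transcript of -0.69 (n = 32 genes of the same libraries), and over 12000 genes tested with a length the correlation was -0.60. With the share of G and C bases in that transcript the correlation was 0.62 over the 32 genes and 0.48 over the 12000. Control replicate 2 also differed from control replicates 1 and 3 along length, with a correlation of -0.57 over the 32 genes and -0.21 over the 12000. Its correlation with the share of G and C had the opposite sign, at -0.35 and -0.30. The parts of length and of base composition were not tested. In OFD1-depleted replicate 2 the short transcripts of TM7SF2, PMVK, EBP and MVD were higher, by 0.77, 0.65, 0.50 and 0.55 on the log2 scale. The long transcripts of ABCA1 and ACACA were lower, with differences of -0.79 and -0.51. The relation with length was loose for single genes, since the short HSD17B7 was also lower (-0.30) and the long FASN differed by -0.20. Without OFD1-depleted replicate 2, 16 of the 32 genes fell, with MVK and EBP added to the 14, against 14.5% of all genes. With each of the other samples left out in turn, 12 to 14 of the 32 genes fell, against 7.21% to 10.9% of all genes. Of the 32 genes, 0 rose in any of these fits. MSMO1, SCD, FADS2, STARD4, FDFT1, FASN, INSIG1, LSS, ELOVL6, FADS1 and ACAT2, 11 genes in all, were lower past the threshold in the main analysis and under all 16 alternatives.

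Other genes of the surrounding pathways were taken from 7 lists. Listed genes averaging under 1 FPKM were not tested and are not in the counts below. Tested were 16 of 20 genes of sterol traffic, storage and the LXR receptors and 16 of 17 of glycerolipid synthesis and storage. Of fatty acid elongation, desaturation, activation and precursor supply, 18 of 24 were tested. Among 11 genes of SREBP processing and of sterol-regulated degradation, 2 fell (18.2%, against 11.9% of all genes) and 0 rose (against 5.07%). ERLIN2 and ERLIN1, which form a complex of the endoplasmic reticulum that takes part in this degradation, were these 2. ERLIN2 went from 10.9, 10.4 and 12.1 FPKM in control to 3.43, 1.80 and 3.72 FPKM with doxycycline (log2 difference -1.92 ± 0.24, adjusted p = 0.000289), and its 3′ UTR holds 1 match to the guide. ERLIN1 went from 36.4, 36.5 and 37.4 to 17.4, 15.0 and 15.8 FPKM (log2 difference -1.19 ± 0.12, adjusted p = 9.11e-05). The groups of both genes lay far apart. The log2 difference was above 0 for 6 of these 11 genes, with a median of 0.07. Of 4 co-factors of SREBP 1 fell and 0 rose, while 11.9% of all genes fell and 5.07% rose. NFYA, a subunit of the factor that binds the CCAAT box, fell (log2 difference -0.64, adjusted p = 0.0123). The 3′ UTR of NFYA holds 2 matches. NFYB, SP1 and NFYC did not pass the threshold, with log2 differences of -0.43, -0.24 and 0.23. A match did not always go with a fall in the 7 lists. PGGT1B, PCYT1A, UBE2G2, ABHD5, NUS1 and HACD2 also hold a 3′ UTR match and did not pass the threshold. Their log2 differences ran from -0.27 (PGGT1B) to 0.15 (HACD2).

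Among further sterol enzymes, LBR, a sterol reductase that is also the lamin B receptor, fell. It was at 22.2 FPKM in each control and at 17.4, 12.5 and 17.7 FPKM with doxycycline (log2 difference -0.50, adjusted p = 0.0433). The groups of LBR did not overlap.

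Of 16 isoprenoid, dolichol and prenylation genes 2 fell and 2 rose, with a median log2 difference of 0.06. The share that fell, 12.5%, was near the 11.9% of all genes, 5.07% of all genes rose, and 12 of the 16 were not called. ICMT, which methylates prenylated proteins, and COQ2, an enzyme of coenzyme Q synthesis, fell (log2 differences -0.53 and -0.63), and RABGGTB, a subunit of the enzyme that prenylates Rab proteins, rose (0.51). Of 16 genes of sterol traffic, storage and the LXR receptors 3 fell (18.8%) and 2 rose, and 11 were not called. NCEH1, a cholesteryl ester hydrolase, was at 63.4, 63.1 and 62.3 FPKM in control and 30.3, 23.6 and 32.3 FPKM with doxycycline (log2 difference -1.14, adjusted p = 0.000292). TMEM97, the sigma-2 receptor, and NPC1, which moves cholesterol out of lysosomes, also fell (log2 differences -0.75 and -0.77). In these genes the OFD1-depleted samples all lay below the controls.

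Of 18 genes of fatty acid elongation, desaturation, activation and precursor supply 4 fell (22.2%, against 11.9% of all genes) and 3 rose (against 5.07% of all genes), and 11 were not called. Whether these shares differ from those of all genes was not tested. HACD3, a dehydratase of the elongation cycle, fell from 47.1, 46.98 and 45.4 FPKM to 27.0, 21.0 and 25.8 FPKM (log2 difference -0.92, adjusted p = 0.000736) and holds 1 match in its 3′ UTR. Its paralog HACD1 rose from 16.7, 17.7 and 17.9 to 27.3, 31.6 and 27.3 FPKM (log2 difference 0.71, adjusted p = 0.00259), and HSD17B12, the ketoreductase of the same cycle, rose from 31.8, 37.8 and 33.6 to 52.6, 48.5 and 54.7 FPKM (log2 difference 0.59, adjusted p = 0.00797). These 3 genes of a single cycle thus did not move together. Of 16 genes of glycerolipid synthesis and storage 1 fell, a share of 6.25% that was below the 11.9% of all genes. This was LPIN1, a phosphatidate phosphatase and known SREBP target, which went from 21.6, 17.2 and 17.1 to 10.5, 7.004 and 10.1 FPKM (log2 difference -1.03, adjusted p = 0.00226).

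The promoters were read from RefSeq (GRCh38.p14, 250 bases before to 50 bases after the start) for the 28 of 32 genes that matched, and letters were searched on both strands. ACAT2, FASN, FDFT1 and SQLE had no promoter here. Only exact letters in this window were searched, so other forms or positions of an element were not looked for. The core of the sterol regulatory element, TCACNCCAC, was in the window of 1 gene, SREBF2, shown here because SREBP binds this element, against 1.43% of the 9029 tested genes with a promoter. The window around it reads as follows, with the 9 motif bases in capitals and the first of them at position -133 from the start:
SREBF2 (chr22:41832962-41832990, + strand): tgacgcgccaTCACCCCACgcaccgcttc

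The CCAAT box, the letters bound by NFYA and its partners, was in 20 of 28 promoters (71.4%, against 43.7% of tested genes). It was in 8 of the 11 genes that fell and have a promoter here, with ELOVL6, FADS1 and SREBF1 lacking it, and in 12 of the 17 that did not pass the threshold. The GC box GGGCGG was in 27 of 28 (96.4%, against 78.3%) and the E-box CACGTG in 5 of 28 (17.9%, against 12.9%). These counts are descriptions of letters in a window of fixed length.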

How the data were processed

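RNA-seq libraries of 6 samples were made with a directional kit by the study's methods, while the labels' extraction text also names frozen retinas and a TruSeq kit. By the methods and the submitters' processing notes, the authors aligned 150 bp paired-end reads with HISAT2 (2.0.5) to the Ensembl GRCh38 reference and deposited FPKM per gene computed with StringTie. The strand setting is not given in the sources used here. The table holds no read counts and depth was not estimated here, so tests of counts were not used and no counting intervals are given.

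Groups and replicate numbers came from the sample titles. Differences were tested with limma (3.58.1, R 4.3.3) with a variance trend on log2(FPKM + 0.1), with genes averaging under 1 FPKM left out, and two-sided p-values were adjusted by Benjamini and Hochberg over all 12025 genes tested (threshold 0.05). Fold changes on this scale understate changes of low genes. Log2 differences are OFD1-depleted minus control. Exact permutation tests were two-sided. The script was tested on simulated data. Alternatives were pseudocounts of 1 and 0.01, no filter, a mean of at least 5 FPKM, median-of-ratios, equal-sum (TPM) and quantile scaling, no trend, array weights, the replicate block and each sample left out in turn.

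Transcripts and 3′ UTRs were the canonical ones of GENCODE 44 on GRCh38. The sense sequence of the shRNA was read from the study's supplement and used only to find the word searched, and the sequences printed come from the genome and from RefSeq. The genes named are the 32, OFD1, up to 3 genes per list with the smallest p-values among those past the threshold, and genes that overlap the 32. One gene that the rule names is not reported here. SCD5 is outside this rule and was named after its values were seen. The genes of the lists that hold a match but did not pass the threshold are also outside it, as are NFYB, SP1 and NFYC. The genes and lists were chosen with earlier results of these data known, and the ratios and guide matches after values were seen.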

Additional observations from a re-analysis of the deposited data

How the results depend on the processing

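The count of the 32 genes that fell was 14 in the main analysis and 11 (no filter) to 21 (equal-sum scaling and array weights) under the alternatives, and 0 rose under any. The share of all genes that fell moved as well. It was 11.9% in the main analysis, 2.89% with no filter, 16.5% with equal-sum scaling and 18.8% with array weights. Of 511 values of single genes under 16 alternatives, 466 kept their direction and side of the threshold, 23 passed it newly and 13 lost it (SREBF1 7, MVD 5 and HMGCS1 1). The sign turned in 9, none of them past the threshold: PMVK at 0.05 without OFD1-depleted replicate 3, ACLY at 0.00089 with median-of-ratios scaling, 0.00063 with array weights and 0.0355 without OFD1-depleted replicate 2, and TM7SF2 at -0.14 with equal-sum scaling, -0.26 with array weights, -0.0039 and -0.06 without control replicates 2 and 3 and -0.25 without OFD1-depleted replicate 2. With 1 sample left out, PMVK ranged from -0.35 to 0.05, TM7SF2 from -0.25 to 0.22 and ACLY from -0.15 to 0.0355. Equal-sum scaling moved the median of all genes by -0.14, with the median of the 32 at -0.59 against -0.18 for all genes.

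Over all genes, 1429 fell and 610 rose (70.1% of calls lower). Without a filter, 28501 genes were tested and 823 fell and 260 rose. With equal-sum scaling 1988 fell and 268 rose (88.1% lower), with median-of-ratios scaling 1316 and 854 (60.6%), with quantile normalization 1311 and 1093 (54.5%) and with array weights 2263 and 1693 (57.2%). With 1 sample left out, 867 to 1741 genes fell and 244 to 1077 rose. The widest counts came without OFD1-depleted replicate 2, and control replicates 1 and 3 gave the lowest (904 and 251, 867 and 244). Without OFD1-depleted replicates 1 and 3, 321 and 398 genes rose. The cause of these shifts was not tested.

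Same-numbered samples of the 2 groups deviated together little (correlations 0.058, 0.048 and 0.011), so the replicate number was not taken as a pairing. With a replicate block 17 of the 32 genes fell, with ABCA1, DHCR7 and MVK added, and 1534 of all genes (12.8%) fell and 762 rose. The depth behind each value is unknown, so differences of genes such as ABCA1 cannot be set against counting error.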
